A study of Rattus norvegicus with 12 samples.

Results

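Transcripts of the mTORC1 kinase complex and of the proteins that report amino acid supply to it were examined in the livers of 12 male rats (strain label: Diet-induced obese Sprague-Dawley). The genes were taken from a list of 34 named for their place in this pathway. A probe set, which is the group of array probes that together measure 1 transcript, was used where its annotation named exactly 1 gene symbol and that symbol was on the list. This gave 29 probe sets for 28 genes, out of 15310 probe sets with 1 symbol for 14506 genes. Deptor, Rragb, Castor1, Wdr59, Mios and Seh1l were not analysed here. Lamtor1 had 2 probe sets, and the brighter stood for the gene.

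The rats were 20 weeks old and had eaten a high fat, high sucrose diet freely for 8 weeks, 4 rats to a diet. Every diet held 4.6 kcal per gram and supplied 10% of its energy as protein. In the leucine diet casein gave 7.1% and free leucine 2.9% of the energy, in the dairy diet the protein came from skim milk powder, and in the control diet it was casein, the main protein of milk. The added leucine therefore cannot be told apart from the smaller amount of casein, nor dairy protein from the rest of skim milk powder. Samples were numbered 1 to 4 within a diet and are read here as 1 liver per rat. Nothing else in the labels says that they were separate, so p-values measure the spread between these samples. Values are the deposited log2 signals of Affymetrix Rat Gene ST 1.0 arrays, on which a difference of 1 is a doubling of signal.

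mTORC1 is a protein kinase complex that raises protein synthesis and holds back autophagy when amino acids and insulin are plentiful. Amino acids act through the Rag GTPases, which are held at the lysosome by the Ragulator complex and bring mTORC1 to that membrane, where the GTPase Rheb switches it on. The GATOR1 complex turns the Rag proteins off, GATOR2 opposes GATOR1, and the leucine and arginine sensors of the sestrin and CASTOR families act on GATOR2. Most of these roles were worked out in human cells, and in liver the pathway is known for linking feeding to protein and lipid synthesis. The arrays measured transcripts only, not the phosphorylation through which the pathway mainly signals.

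The samples held liver RNA by all 12 hepatocyte markers, whose means ran from 10.57 for Hnf4a to 13.70 for Alb. Of these, 10 were below 0 for dairy minus casein (median -0.128), where 53.1% of all probe sets were. For leucine minus casein 9 were below 0 (median -0.0844), where 56.2% of all probe sets were. The distribution of values was narrowest on dairy replicate 3 and casein replicate 4, with an SD over all probe sets of 2.075 and 2.138, against up to 2.333 on the other arrays. Casein replicate 4 was the highest or the lowest of the casein arrays for 24 of the 28 genes (85.7%), against 65.7% of all probe sets. Values without these arrays are given beside many, but not all, of the results that they moved. Of 8 erythroid markers measured of 11 listed, 4 lay below the median probe set, and their mean signal per array was 4.87 to 6.48 with leucine, 5.14 to 5.44 with dairy and 4.77 to 5.08 with casein. Every dairy array was thus above every casein array for this blood marker score. Of 11 neutrophil markers, 8 lay below the median probe set, and their mean per array was 3.52 to 5.54 with leucine, 3.62 to 5.36 with dairy and 3.36 to 5.02 with casein, with 11 markers above 0 for leucine minus casein and 9 for dairy minus casein. Of 10 stellate cell and fibrosis markers, 7 were above 0 for dairy minus casein, with a median of 0.352. Of 6 endothelial markers measured of 8 listed, 5 were below 0 for dairy minus casein and 2 for leucine minus casein. Of 10 Kupffer cell and macrophage markers, 4 were above 0 and 6 below for dairy minus casein, and 5 differed by more than 0.5. Their mean per array was 7.49 to 8.47 with leucine, 7.18 to 8.25 with dairy and 7.65 to 8.02 with casein. Lymphocyte and cholangiocyte markers were also examined. None of these markers passed an adjusted p of 0.05 in limma, and their part in the results was not tested. In whole tissue, fewer cells of a type and less RNA per cell cannot be told apart.

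No gene of the group passed an adjusted p of 0.05 in limma between any pair of diets, nor in the F test over the 3 diets, where the lowest adjusted p was 0.684. The shares of all probe sets past that threshold were 0% for leucine against casein, 0.0849% for dairy against casein, 0% for leucine against dairy and 0.0327% in the F test, so few calls were made anywhere. Eif4ebp1, which encodes a repressor of cap-dependent translation, had the largest difference of the group, and its mean was higher in both test diets than with casein. Lamtor4, a Ragulator subunit, had lower means in both test diets, and Akt1s1, an inhibitor of the kinase, was lower in every leucine sample than in every dairy sample.

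Leucine against casein gave log2 differences from -0.30 to 0.58 over the 28 genes. Their median was -0.0606, against -0.0288 over all probe sets. Of the genes, 10 were above 0 and 18 below, where 56.2% of all probe sets were below 0. Leaving out casein replicate 4 gave a median of -0.114, against -0.0205 over all probe sets. At an unadjusted p of 0.05, 0 genes were higher and 1 was lower, where 1.39% of all probe sets were higher and 1.92% lower. The diets did not overlap for 0 genes, against 2.44% of all probe sets. The 95% interval of the difference stayed within 1 log2 unit either way for 26 of the 28 genes, so a doubling or halving lay outside it for those. The same held for 13359 of all 15310 probe sets.

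Dairy against casein gave a wider range, from -0.60 to 0.76. Of the genes, 11 were above 0 and 17 below, where 53.1% of all probe sets were below 0. The median was -0.0672, against -0.0224 over all probe sets. Without casein replicate 4 it was -0.177, against -0.000136 over all probe sets, and without both arrays of narrowest spread it was -0.0825, against -0.0137. At an unadjusted p of 0.05, 1 gene was higher and 0 were lower, where 4.59% of all probe sets were higher and 6.32% lower. For 1 gene, Lamtor4, the diets did not overlap, against 4.27% of all probe sets. For 23 genes the interval stayed within 1 log2 unit, as it did for 11998 of all 15310 probe sets.

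Between the test diets, leucine minus dairy ran from -0.35 to 0.50 with a median of -0.0226, against -0.0113 over all probe sets. At an unadjusted p of 0.05, 0 genes were higher and 0 lower, where 3.65% of all probe sets were higher and 3.3% lower. Only Akt1s1 had diets that did not overlap, against 5.09% of all probe sets. In the F test 0 of the 28 genes had an unadjusted p under 0.05, against 7.76% of all probe sets. A single gene of 28 is a share of 3.57%, of the same order as these shares of all probe sets.

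**Figure D1:**
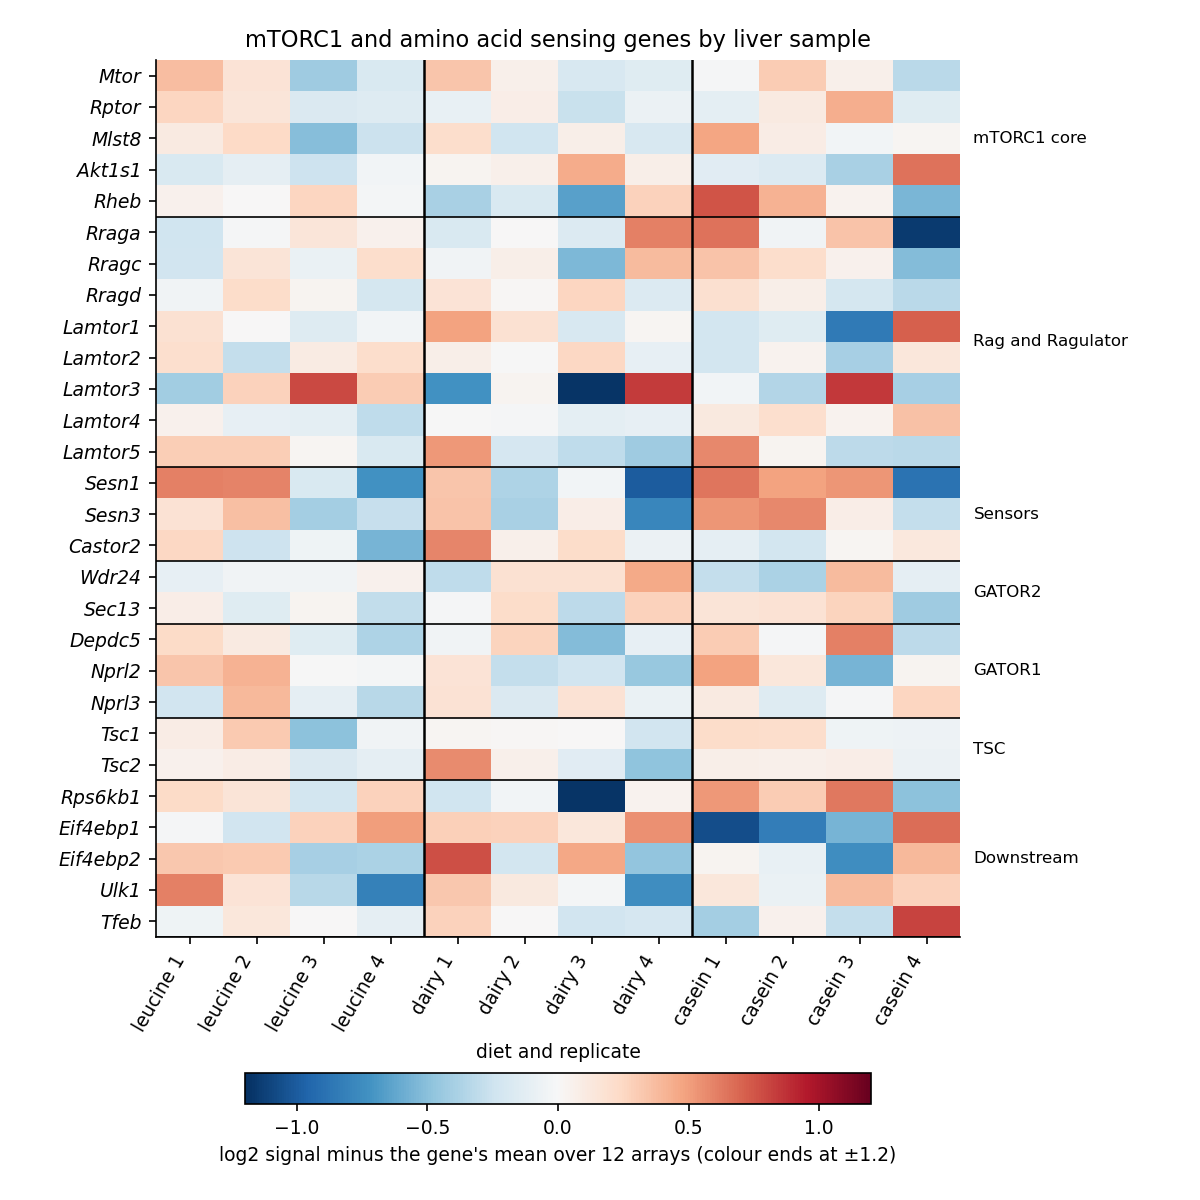
Log2 signal of each of the 28 genes in each of the 12 liver samples, minus the gene's mean over the 12 arrays, with red above and blue below that mean, columns by diet and replicate, and rows by complex. No block of rows separates the diets, and the strongest colours stand in single samples such as casein 4 and dairy 3.

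**Figure D2:**
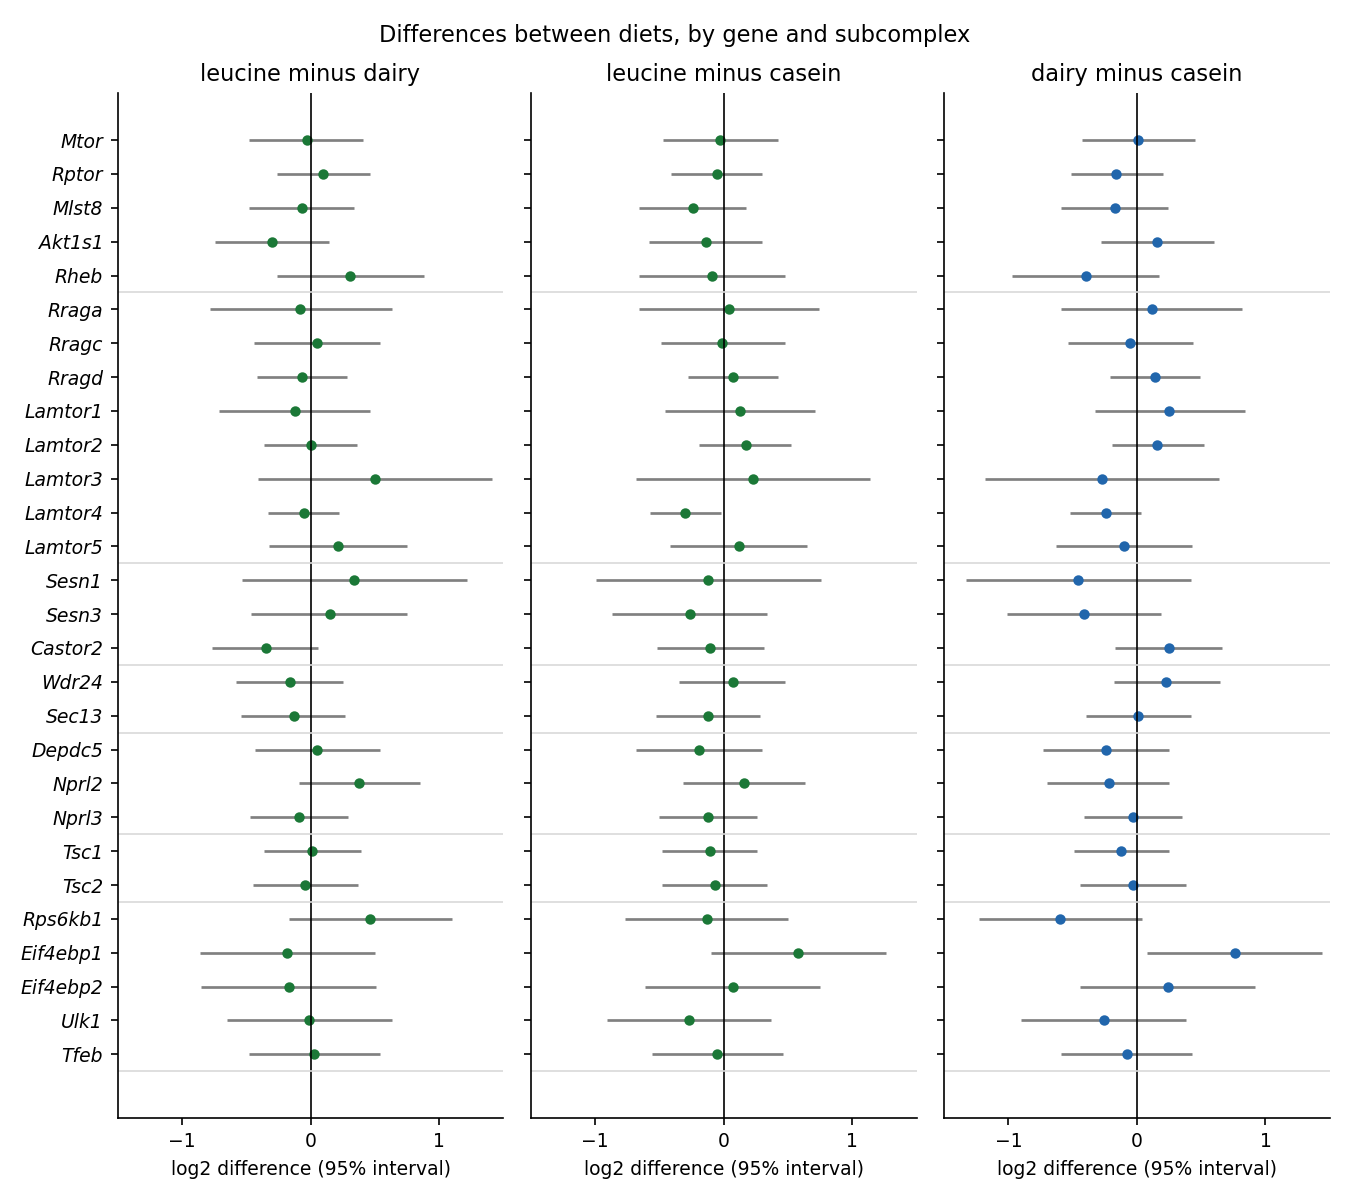
Log2 difference between diets for each gene (points) with its 95% interval from limma (lines), for leucine minus dairy, leucine minus casein and dairy minus casein. Nearly every interval covers 0, and Eif4ebp1 in dairy minus casein and Lamtor4 in leucine minus casein are the 2 that do not.

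Among the core subunits, Mtor, the kinase itself, had signals of 7.89, 7.68, 7.09 and 7.33 in the leucine samples, 7.85, 7.58, 7.32 and 7.37 in the dairy samples, and 7.50, 7.82, 7.58 and 7.19 in the casein samples. The diets overlapped throughout. Its log2 difference was -0.03 for leucine minus casein (95% interval -0.47 to 0.42) and 0.01 for dairy minus casein (-0.43 to 0.45), with an SE of 0.203. Rptor, the scaffold that recruits substrates, averaged 6.05 ± 0.214 with leucine, 5.95 ± 0.143 with dairy and 6.11 ± 0.267 with casein (SD, n = 4 each). Mlst8, which binds the kinase domain, averaged 5.65 ± 0.343 with leucine, 5.72 ± 0.215 with dairy and 5.89 ± 0.223 with casein (SD, n = 4 each). Both had differences within 0.24 of 0 in every comparison. Mtor was at -0.14 for leucine and -0.10 for dairy against casein without casein replicate 4, and Rptor at -0.13 for leucine and -0.23 for dairy.

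Akt1s1 encodes PRAS40, which inhibits mTORC1 until it is phosphorylated. Its signals were 7.05, 7.13, 6.99 and 7.20 in the leucine samples, 7.27, 7.30, 7.68 and 7.31 in the dairy samples, and 7.10, 7.07, 6.85 and 7.89 in the casein samples. All leucine samples lay below all dairy samples, while the casein samples spread across both. Leucine minus dairy was -0.30 (SE 0.203, 95% interval -0.74 to 0.14, limma adjusted p 0.766). Leucine minus casein was -0.14 (adjusted p 0.999) and dairy minus casein was 0.16 (adjusted p 0.796). Without casein replicate 4, leucine minus casein was 0.08 and dairy minus casein was 0.38. Without both arrays of narrowest spread, leucine minus dairy was -0.20.

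The promoters of Akt1s1 and Lamtor4 are shown because these are the genes whose samples did not overlap between a pair of diets. RefSeq promoters (build GRCr8) matched 21 of the 28 genes, each running from 250 bases before the start of the gene to 50 after it. The motifs searched on both strands were CACGTG (the E-box that MiT factors such as TFEB bind), TGATGNAAT (the core of an amino acid response element) and GTAAACA (a forkhead core). No match overlaps another in the promoters shown. Capitals mark the matches. Akt1s1 lies on the plus strand at chr1:104469586-104469885, and Lamtor4 on the plus strand at chr12:22372019-22372318.
Akt1s1: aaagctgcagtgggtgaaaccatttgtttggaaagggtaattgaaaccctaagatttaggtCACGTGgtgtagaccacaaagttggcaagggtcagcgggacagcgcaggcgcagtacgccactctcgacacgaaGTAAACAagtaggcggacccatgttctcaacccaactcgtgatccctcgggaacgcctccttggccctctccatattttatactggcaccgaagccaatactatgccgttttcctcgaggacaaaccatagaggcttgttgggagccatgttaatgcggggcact
Lamtor4: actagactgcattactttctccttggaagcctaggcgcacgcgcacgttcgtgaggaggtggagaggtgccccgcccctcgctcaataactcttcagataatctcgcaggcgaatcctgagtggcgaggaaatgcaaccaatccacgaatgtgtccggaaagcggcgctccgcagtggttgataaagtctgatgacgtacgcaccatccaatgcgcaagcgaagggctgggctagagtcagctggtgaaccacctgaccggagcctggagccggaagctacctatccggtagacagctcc

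The Akt1s1 promoter held CACGTG starting 189 bases and GTAAACA starting 115 bases before the start, and the Lamtor4 promoter held no match. CACGTG was also found for Lamtor1 and Rheb, so in 3 of 21 promoters, against 6.42% of all 33469 promoters. GTAAACA was found in 2 of 21, for Akt1s1 and Tsc1, against 3.78%, and TGATGNAAT in 0 of 21, against 1.09%. A match says only that these letters are in the window.

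Rheb, the GTPase that switches mTORC1 on, had 7.01, 6.97, 7.22 and 6.94 in the leucine samples, 6.57, 6.78, 6.31 and 7.24 in the dairy samples, and 7.72, 7.38, 7.00 and 6.41 in the casein samples. The leucine samples sat close together, and the other diets overlapped them on both sides. The dairy minus casein difference was -0.40 (SE 0.264, adjusted p 0.581), and without casein replicate 4 it was -0.64 (adjusted p 0.143). Leucine minus casein was -0.09 with that array and -0.33 without it.

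Of the Rag GTPases, Rraga and Rragc averaged within 0.12 log2 units across the diets, and Rragd was the dimmest gene of the group and the only one below the median probe set. Rragd averaged 3.46 ± 0.179 with leucine, 3.53 ± 0.182 with dairy and 3.39 ± 0.242 with casein (SD, n = 4 each). At so low a signal a log2 difference may understate a change. Rraga was at 5.63 in casein replicate 4, against 6.74 to 7.43 in the other casein samples. Its leucine minus casein difference was 0.04 with that array and -0.33 without it, and its dairy minus casein difference was 0.12 with it and -0.25 without it. For Rragc, leucine minus casein was -0.01 with casein replicate 4 and -0.19 without it, and dairy minus casein was -0.05 with it and -0.23 without it. For Rragd, leucine minus casein turned to -0.01 without it, and dairy minus casein was 0.14 with it and 0.06 without it.

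Lamtor4, one of the small subunits of the Ragulator scaffold, had signals of 8.45, 8.30, 8.28 and 8.09 in the leucine samples, 8.39, 8.38, 8.28 and 8.30 in the dairy samples, and 8.52, 8.60, 8.44 and 8.75 in the casein samples. Every dairy sample was below every casein sample, and the highest leucine sample overlapped the lowest casein sample by 0.01. The means were 8.28 ± 0.15 with leucine, 8.33 ± 0.0558 with dairy and 8.58 ± 0.135 with casein (SD, n = 4 each). Leucine minus casein was -0.30 (SE 0.126, 95% interval -0.57 to -0.02, limma unadjusted p 0.035, adjusted p 0.999). Dairy minus casein was -0.24 (95% interval -0.52 to 0.03, adjusted p 0.501), and leucine minus dairy was -0.05 (adjusted p 0.934). The spread of Lamtor4 within diets, 0.121, was the smallest of the 28 genes, and the highest was 0.674 for Lamtor3. Both differences share the casein samples. Without casein replicate 4 the leucine difference was -0.24 (limma unadjusted p 0.0769) and the dairy difference was -0.19.

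Lamtor1, the lipid-anchored subunit that ties Ragulator to the lysosome, had 7.36, 7.18, 7.02 and 7.14 in the leucine samples, 7.66, 7.36, 6.98 and 7.20 in the dairy samples, and 6.96, 7.03, 6.33 and 7.89 in the casein samples. The casein samples enclosed all the others. Dairy minus casein was 0.25 on this probe set and 0.20 on the second, and leucine minus casein was 0.13 on the first and 0.11 on the second. On the brighter probe set, leucine minus casein was 0.41 and dairy minus casein was 0.53 without casein replicate 4. Lamtor2 differed by 0.17 for leucine minus casein and 0.16 for dairy minus casein, and Lamtor5 by 0.12 for leucine and -0.10 for dairy against casein. Lamtor3 ran from 6.15 in dairy replicate 3 to 8.17 in casein replicate 3, and its leucine minus dairy difference of 0.50 had a 95% interval of -0.41 to 1.41. Without both arrays of narrowest spread that difference was 0.19. Of the 8 Rag and Ragulator genes, 6 were above 0 and 2 below for leucine minus casein, with a median of 0.0934, and 4 above and 4 below for dairy minus casein, with a median of 0.0336. Leaving out casein replicate 4 turned both medians. For leucine minus casein 4 were then above and 4 below with a median of -0.00197, and for dairy minus casein 3 above and 5 below with a median of -0.195.

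Sesn1 encodes a sestrin, which in human cells binds leucine itself and binds GATOR2 when leucine is scarce. Sesn1 had 6.62, 6.61, 5.83 and 5.29 in the leucine samples, 6.35, 5.64, 5.98 and 5.02 in the dairy samples, and 6.66, 6.50, 6.54 and 5.13 in the casein samples. Replicate 4 was the lowest in each diet, and the values within a diet spanned more than any difference between diets. Leucine minus casein was -0.12 (95% interval -0.99 to 0.76) and dairy minus casein was -0.46 (-1.33 to 0.42, adjusted p 0.706). Without casein replicate 4 the leucine minus casein difference was -0.48 and the dairy minus casein difference was -0.82 (adjusted p 0.219). Sesn3, a second sestrin, had differences of -0.26 for leucine and -0.41 for dairy against casein, and without that array -0.43 for leucine and -0.58 for dairy.

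Castor2 is a paralogue of the arginine sensor CASTOR1. Its signals were 5.16, 4.66, 4.86 and 4.35 in the leucine samples, 5.50, 4.97, 5.13 and 4.84 in the dairy samples, and 4.80, 4.69, 4.93 and 5.04 in the casein samples. The leucine and dairy samples overlapped. Leucine minus dairy was -0.35 (SE 0.192, 95% interval -0.77 to 0.06, adjusted p 0.738), leucine minus casein -0.11 (adjusted p 0.999) and dairy minus casein 0.25 (adjusted p 0.659).

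For GATOR2, Wdr24, one of its own subunits, had 5.87, 5.92, 5.92 and 6.02 in the leucine samples, 5.66, 6.15, 6.15 and 6.42 in the dairy samples, and 5.68, 5.58, 6.34 and 5.86 in the casein samples. The leucine samples lay inside the range of both other diets. Dairy minus casein was 0.23 (SE 0.192, 95% interval -0.18 to 0.65, adjusted p 0.685) and leucine minus casein was 0.07 (adjusted p 0.999). Sec13, which GATOR2 shares with the nuclear pore and the COPII coat, had differences of -0.12 for leucine minus casein and 0.01 for dairy minus casein. They were -0.28 for leucine and -0.15 for dairy without casein replicate 4.

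GATOR1 is made of Depdc5, Nprl2 and Nprl3. Nprl2 had 5.78, 5.86, 5.44 and 5.42 in the leucine samples, 5.61, 5.16, 5.22 and 4.99 in the dairy samples, and 5.93, 5.58, 4.89 and 5.48 in the casein samples. All leucine samples lay above every dairy sample except replicate 1. Leucine minus dairy was 0.38 (SE 0.218, 95% interval -0.09 to 0.85, adjusted p 0.746), leucine minus casein 0.16 (adjusted p 0.999) and dairy minus casein -0.22 (adjusted p 0.734). Depdc5 differed by -0.19 for leucine and -0.24 for dairy against casein, and Nprl3 by -0.12 for leucine and -0.03 for dairy. Depdc5 was at -0.34 for leucine and -0.40 for dairy without casein replicate 4, and Nprl3 at -0.05 for leucine and 0.04 for dairy.

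Tsc1 and Tsc2 form the complex that turns Rheb off and through which insulin signalling reaches mTORC1. Tsc1 had 6.16, 6.39, 5.58 and 6.03 in the leucine samples, 6.10, 6.09, 6.08 and 5.84 in the dairy samples, and 6.29, 6.28, 6.02 and 6.01 in the casein samples. All diets overlapped. Dairy minus casein was -0.12 (SE 0.172, 95% interval -0.49 to 0.25, adjusted p 0.823) and leucine minus casein was -0.11 (-0.48 to 0.26, adjusted p 0.999). Tsc2 differed by -0.07 for leucine and -0.03 for dairy against casein.

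Downstream of the kinase, Eif4ebp1 encodes the protein that binds the cap-binding factor and blocks translation until mTORC1 phosphorylates it. Its signals were 7.79, 7.57, 8.08 and 8.30 in the leucine samples, 8.09, 8.08, 7.94 and 8.35 in the dairy samples, and 6.74, 6.97, 7.24 and 8.47 in the casein samples. All leucine and dairy samples stood above casein replicates 1 to 3, and casein replicate 4 stood above all of them. The means were 7.93 ± 0.321 with leucine, 8.12 ± 0.169 with dairy and 7.35 ± 0.771 with casein (SD, n = 4 each). Dairy minus casein was 0.76, a 1.7-fold difference (SE 0.313, 95% interval 0.08 to 1.44, limma unadjusted p 0.031, adjusted p 0.419). Leucine minus casein was 0.58 (95% interval -0.10 to 1.26, adjusted p 0.999), and leucine minus dairy was -0.18 (-0.86 to 0.50, adjusted p 0.913).

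The call for Eif4ebp1 depended on casein replicate 4. Without that array, dairy minus casein was 1.13 (SE 0.194) with a limma adjusted p of 0.027, and leucine minus casein was 0.95 (SE 0.194) with an adjusted p of 0.17. Without both arrays of narrowest spread the dairy difference was 1.19 (adjusted p 0.0326). The share of all probe sets called for dairy against casein was then 1.55% without casein replicate 4 and 1.07% without both, and Eif4ebp1 was the 1 gene of the 28 called in each case. Without casein replicate 4, 3 genes were higher at an unadjusted p of 0.05 (Eif4ebp1, Akt1s1 and Lamtor1) and 3 lower (Rheb, Sesn1 and Rps6kb1), where 8.74% of all probe sets were higher and 12.4% lower. The same 6 genes passed without both arrays, where 7.58% of all probe sets were higher and 9.82% lower. The blood marker score was higher in every dairy sample than in every casein sample, casein replicate 4 included. Eif4ebp1 differed from it there, being higher in casein replicate 4 than in every dairy sample. The part of the blood marker score in these results was not tested.

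**Figure D3:**
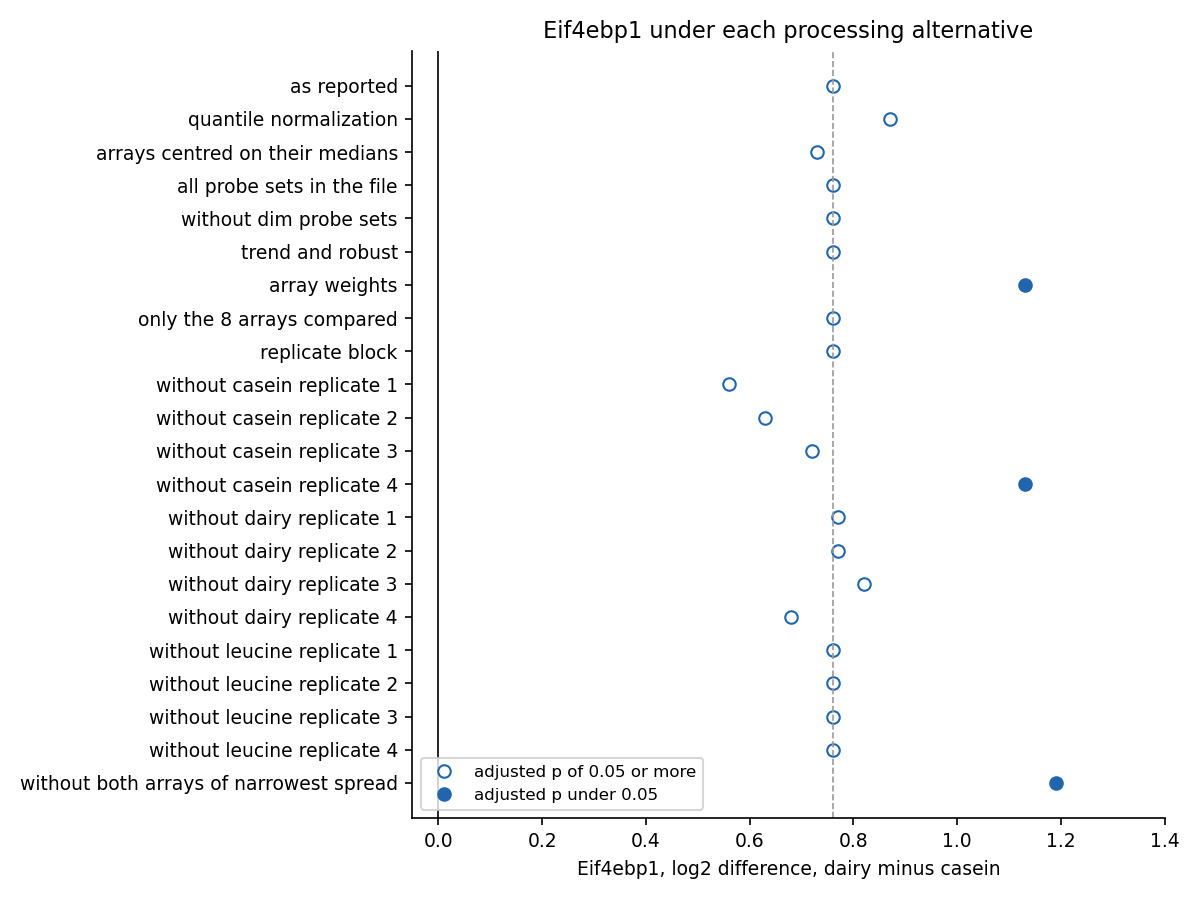
Log2 difference of Eif4ebp1, dairy minus casein, as reported and under each processing alternative, with filled points where the limma adjusted p is under 0.05. All values are above 0, from 0.56 to 1.19, and the 3 filled points are those that leave out or weigh down casein replicate 4.

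Rps6kb1, the ribosomal S6 kinase that mTORC1 activates, had 7.94, 7.87, 7.49 and 7.99 in the leucine samples, 7.47, 7.68, 6.53 and 7.75 in the dairy samples, and 8.23, 8.02, 8.34 and 7.22 in the casein samples. Dairy replicate 3 and casein replicate 4 were the lowest of their diets. For dairy minus casein the difference was -0.60 (SE 0.293, 95% interval -1.23 to 0.04, adjusted p 0.478) and leucine minus casein was -0.13 (adjusted p 0.999). Leaving out casein replicate 4 gave -0.37 for leucine minus casein and -0.84 for dairy minus casein. Without both of those arrays the dairy difference was -0.56 (adjusted p 0.128). With all arrays in, Eif4ebp1 and Rps6kb1, both direct substrates, had the largest dairy minus casein differences of the 28 genes, with opposite signs. Without both arrays, those of Sesn1 (-0.90), Sesn3 (-0.67) and Lamtor1 (0.64) were larger than that of Rps6kb1.

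Ulk1, the autophagy kinase that mTORC1 holds back, had 7.80, 7.36, 6.86 and 6.39 in the leucine samples, 7.52, 7.31, 7.17 and 6.45 in the dairy samples, and 7.33, 7.12, 7.58 and 7.47 in the casein samples. The casein samples were closer together and lay within the range of the leucine samples, and casein replicate 3, at 7.58, was above every dairy sample. Its difference was -0.27 for leucine and -0.26 for dairy against casein. Eif4ebp2, a second translation repressor, differed by 0.07 for leucine and 0.24 for dairy against casein, and Tfeb, a transcription factor for lysosomal genes, by -0.05 for leucine and -0.08 for dairy. Tfeb was at 5.92 in casein replicate 4, against 4.70 to 5.16 in the other casein samples. Without that array its differences turned to 0.21 for leucine and 0.17 for dairy against casein, and those of Eif4ebp2 were 0.23 for leucine and 0.40 for dairy.

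**Figure D4:**
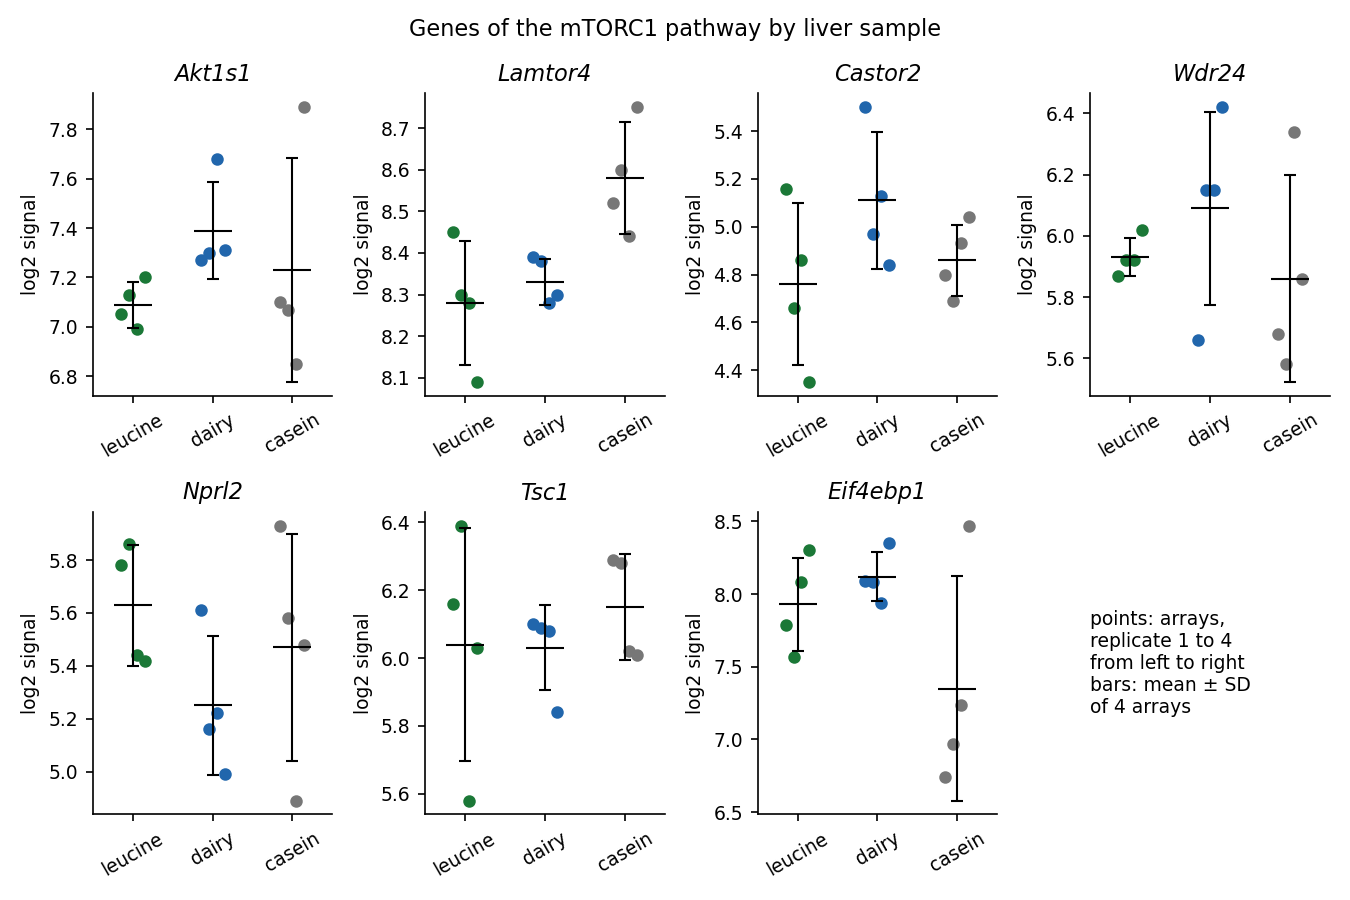
Log2 signal of 7 genes in each liver sample (points, replicates 1 to 4 from left to right) by diet, with the mean and SD of 4 arrays. Lamtor4 is lower in all dairy than in all casein samples, Akt1s1 is lower in all leucine than in all dairy samples, and casein replicate 4 stands above the other casein samples for Akt1s1 and Eif4ebp1.

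Further genes around the pathway were taken from 8 lists with 98 genes, of which 74 were measured. None passed an adjusted p of 0.05 in limma. For leucine minus casein, 21 were above 0 and 53 below, where 56.2% of all probe sets were below 0. The median was -0.109, against -0.0288 over all probe sets. At an unadjusted p of 0.05, 2 were higher and 3 lower, where 1.39% of all probe sets were higher and 1.92% lower. The median was -0.175 without casein replicate 4. For dairy minus casein, 17 were above 0 and 57 below with a median of -0.172, where 53.1% of all probe sets were below 0. At that p 2 were higher and 11 lower, where 4.59% of all probe sets were higher and 6.32% lower. Without casein replicate 4, 21 were above 0 and 53 below for dairy with a median of -0.24, and 3 were higher and 18 lower, where 8.74% of all probe sets were higher and 12.4% lower. Without both arrays of narrowest spread, 27 were above 0 and 47 below with a median of -0.0999, and 4 were higher and 13 lower, where 7.58% were higher and 9.82% lower. For leucine minus dairy, 43 were above 0 and 31 below, and 3 were higher and 2 lower, where 3.65% of all probe sets were higher and 3.3% lower. Without both arrays, 34 were above 0 and 40 below. The diets did not overlap for 7 of the 74 genes in dairy against casein, against 4.27% of all probe sets. In leucine against casein they did not overlap for 3 genes, against 2.44%, and in leucine against dairy for 3, against 5.09%. With all arrays, 56.2% of all probe sets were below 0 for leucine and 53.1% for dairy against casein, and 52% for leucine minus dairy. Without casein replicate 4 the shares were 53.3% for leucine and 50% for dairy against casein. Without both arrays of narrowest spread they were 51.9% for dairy against casein and 49.5% for leucine minus dairy. These shares also stand beside the list counts that follow.

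Itfg2, a subunit of the KICSTOR complex that anchors GATOR1 to the lysosome, had 5.03, 5.47, 5.55 and 5.32 in the leucine samples, 5.50, 5.58, 5.44 and 5.64 in the dairy samples, and 6.17, 5.70, 5.98 and 5.70 in the casein samples. All leucine and all dairy samples lay below all casein samples. Leucine minus casein was -0.54 (SE 0.156, unadjusted p 0.00446, adjusted p 0.999) and dairy minus casein was -0.35 (unadjusted p 0.0457, adjusted p 0.45). Kptn, the other KICSTOR subunit measured, differed by -0.23 for leucine and -0.30 for dairy against casein. Of the mTORC2 subunits, Prr5 had a leucine minus dairy difference of -0.46 (adjusted p 0.657). Among 9 folliculin, Slc38a9 and related lysosomal regulators, 0 had an unadjusted p under 0.05, and their median was -0.172 for leucine and -0.06 for dairy against casein. The dairy median was -0.145 without casein replicate 4.

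The vacuolar ATPase acidifies the lysosome and binds Ragulator. Of its 15 measured subunits, 13 were below 0 for dairy minus casein, with a median of -0.173, and 8 were above 0 for leucine minus casein, with a median of 0.051. Atp6v1a differed by -0.49 and Atp6v1h by -0.37 for dairy minus casein, with adjusted p of 0.438 and 0.434. Atp6v1d differed by 0.64 for leucine minus dairy (adjusted p 0.708), and by 0.45 without both arrays of narrowest spread. Without casein replicate 4, 9 of the 15 were below 0 for leucine minus casein, with a median of -0.0591, so that the sign turned. For dairy minus casein 13 were then below 0 with a median of -0.298, and without both arrays of narrowest spread 9 were below 0 with a median of -0.102. Leucine minus dairy had a median of 0.227 with all arrays and 0.0101 without both.

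Of 17 lysosomal genes of the network that TFEB controls, 14 were below 0 for leucine minus casein with a median of -0.171, and 14 for dairy minus casein with a median of -0.211. Both counts share the casein samples, and without both arrays of narrowest spread the dairy median was -0.0814. Cln3, a lysosomal membrane protein, had 5.80, 5.64, 5.59 and 5.57 in the leucine samples, 5.92, 5.76, 5.63 and 5.56 in the dairy samples, and 5.99, 5.95, 6.09 and 5.96 in the casein samples. All samples of both test diets lay below all casein samples, with log2 differences of -0.35 for leucine (adjusted p 0.999) and -0.28 for dairy (adjusted p 0.444). Lamp1, a main protein of the lysosomal membrane, differed the other way, by 0.27 for leucine minus casein (adjusted p 0.999). Lamp2, its relative, differed by -0.75 for dairy minus casein (adjusted p 0.335) and by 0.55 for leucine minus dairy (adjusted p 0.711). Without both arrays of narrowest spread these Lamp2 differences were -0.59 for dairy minus casein and 0.29 for leucine minus dairy. Gla, a lysosomal galactosidase, differed by -0.64 for dairy minus casein (adjusted p 0.35). Sqstm1, an autophagy receptor, differed by -0.53 for leucine minus casein (adjusted p 0.999).

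Of 13 insulin, energy and stress inputs, 9 were below 0 for leucine minus casein and 10 for dairy minus casein. Pdpk1, the kinase that activates AKT and S6 kinase, had 8.03, 8.01, 7.58 and 7.64 in the leucine samples, 7.38, 7.48, 7.07 and 7.53 in the dairy samples, and 7.88, 7.93, 7.70 and 7.59 in the casein samples. Every dairy sample lay below every leucine and every casein sample. Leucine minus dairy was 0.45 (adjusted p 0.657) and dairy minus casein was -0.41 (adjusted p 0.388). Ddit4, which restrains mTORC1 through the TSC complex, had 6.91, 5.97, 7.61 and 6.21 in the leucine samples, 6.73, 6.60, 7.70 and 7.26 in the dairy samples, and 5.66, 5.84, 5.71 and 6.42 in the casein samples. The dairy samples lay above all casein samples and the leucine samples overlapped them, with a log2 difference of 0.77 for leucine minus casein (adjusted p 0.999) and 1.17 for dairy minus casein (unadjusted p 0.00569, adjusted p 0.295). Prkag1, a subunit of the energy sensor AMPK, differed by -0.66 for dairy minus casein (adjusted p 0.434, and -0.38 without both arrays of narrowest spread), and Akt1 by -0.35 for leucine minus dairy (adjusted p 0.683). The 1 insulin receptor probe set with an unadjusted p under 0.05 for dairy minus casein, at -0.64, had a leucine minus casein difference of -0.24, and the other Insr probe set differed by -0.12 for dairy and 0.01 for leucine against casein.

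Among 9 translation targets, 8 were below 0 for leucine minus casein, with a median of -0.125, and 6 for dairy minus casein, with a median of -0.181, or -0.277 without casein replicate 4. Eif4e, the cap-binding factor that Eif4ebp1 holds, differed by -0.73 for dairy minus casein (SE 0.322, adjusted p 0.443) and by -0.11 for leucine minus casein (adjusted p 0.999). Its dairy samples ran from 6.66 in replicate 3 to 8.54 in replicate 4, and without both arrays of narrowest spread the dairy difference was -0.43. Eif4b, a helicase cofactor that S6 kinase phosphorylates, differed by -0.37 for dairy minus casein (adjusted p 0.39), and all dairy samples lay below all casein samples. Among 7 autophagy initiation genes and MiT factors, Rb1cc1, the scaffold of the ULK1 complex, had a dairy minus casein difference of 0.85 on its brighter probe set (adjusted p 0.365) and -0.51 on the other.

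**Figure D5:**
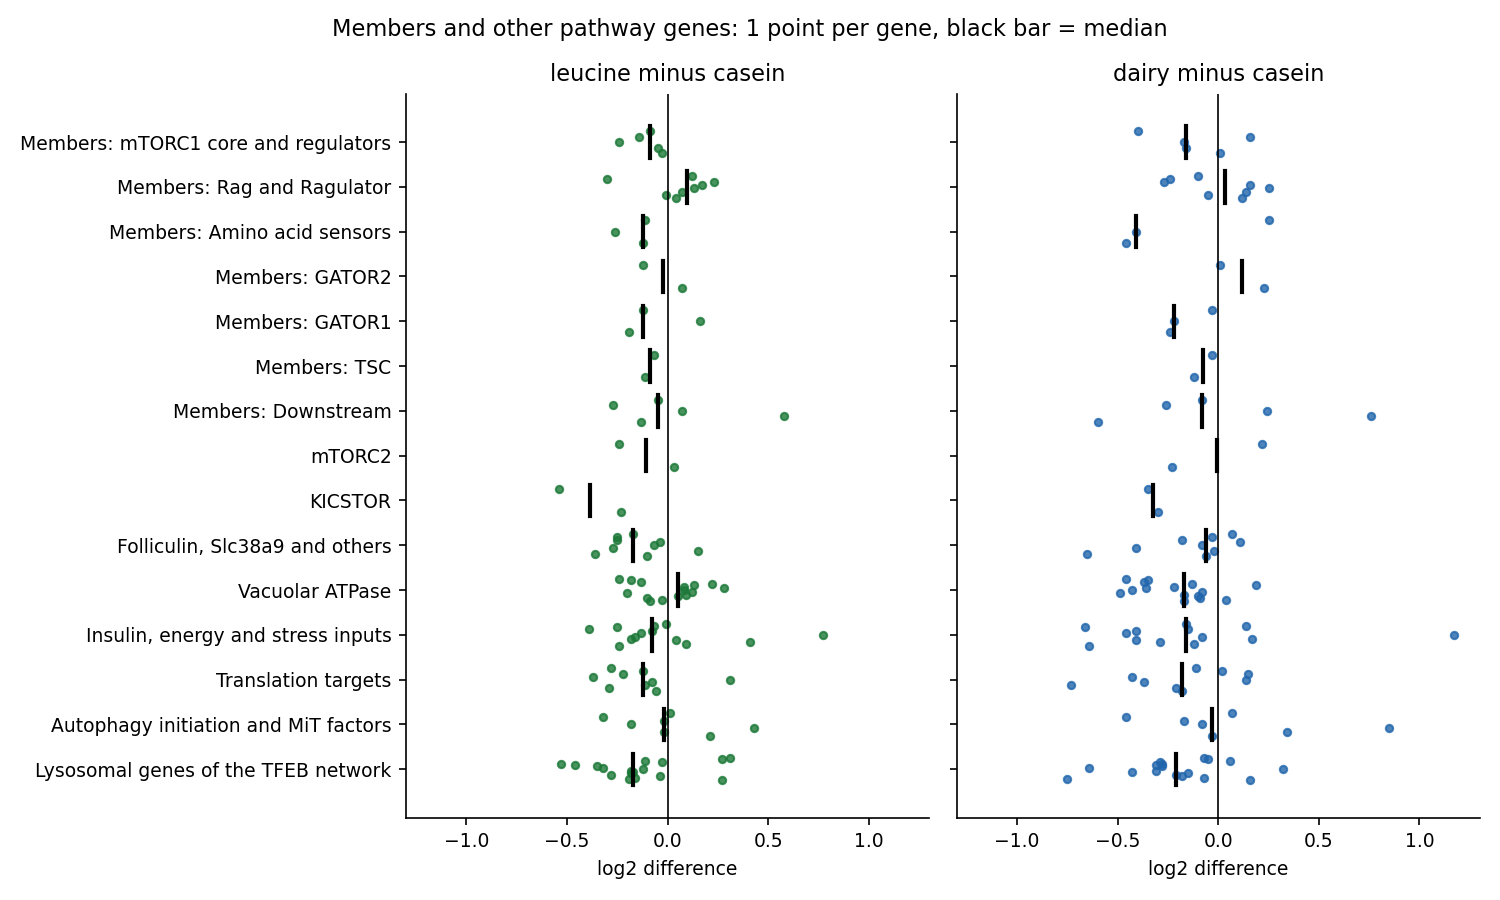
Log2 difference of each gene (points) and the median of each complex or list (black bars), for leucine minus casein and dairy minus casein. Medians of the complexes and lists lie between -0.41 and 0.12. The points farthest to the right are Ddit4 and Eif4ebp1 for leucine, and Ddit4, Rb1cc1 and Eif4ebp1 for dairy.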

How the data were processed

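Liver RNA of 12 rats was measured on 1 array per sample. The deposited values are log2 signals per probe set. Per the submitters' processing notes, the authors made them in Affymetrix Expression Console. Not given in the sources used here were the program's version, its algorithms and the build. Medians of the columns ran from 4.432 to 4.616 and SDs from 2.075 to 2.333, so array-wide differences remain in the values. Of 29214 probe sets, 15310 had 1 symbol, 323 had several, and 13581 were not listed and stay unnamed here.

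The deposited log2 values were fitted with limma 3.58.1 in R 4.3.3 (3 diet means over 12 arrays, eBayes, 9 residual and 3.448 prior degrees of freedom), with two-sided tests and Benjamini-Hochberg adjustment over the 15310 probe sets at 0.05. The code was tested on simulated data. The number of arrays limits the precision. Genes and lists were chosen with earlier results of these data known. Values in every array are given for genes with an unadjusted p under 0.05 or with diets that do not overlap, and otherwise for the gene of a complex with the smallest F test p, with Mtor, Rheb, Lamtor1, Sesn1, Rps6kb1, Ulk1, Itfg2, Cln3, Pdpk1 and Ddit4 added after their values were seen. In each comparison up to 4 genes a pathway list with the smallest unadjusted p under 0.05 are named, and Kptn and the second Insr and Rb1cc1 probe sets are additions. Same-numbered samples deviated together in every pair of leucine and casein samples (correlations 0.375, 0.38, 0.532 and 0.208). Only leucine replicate 3 correlated best with the casein sample of its own number, so these correlations do not show that the numbers mark pairs. In dairy against casein (-0.505 to 0.502) and leucine against dairy (-0.304 to 0.59) same-numbered samples did not deviate together throughout. Alternatives covered normalization, filters, array weights, a replicate block and leaving out arrays. A fit of the block to the 8 leucine and casein arrays was added after that check.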

Additional observations from a re-analysis of the deposited data

Results flagged for a closer look

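In 5 of 84 groups of 4 samples (28 genes by 3 diets), 1 sample stood apart from the other 3 by more than Dixon's critical value, where about 1 group in 20, or 4.2 of 84, does so by chance. Akt1s1 was 7.68 in dairy replicate 3, against 7.27 to 7.31 in the other dairy samples. Tsc1 was 5.84 in dairy replicate 4, against 6.08 to 6.10. The other 3 were in casein replicate 4, an array of narrow spread: Sesn1 was 5.13 there, against 6.50 to 6.66 in the other casein samples, Sec13 was 8.60, against 9.18 to 9.30, and Tsc2 was 6.53, against 6.66 to 6.68.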

How the results depend on the processing

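The number of the 28 genes past an adjusted p of 0.05 was 0 in limma for each comparison and stayed at 0 under 80 of 84 alternative values. It was 1 for dairy minus casein with array weights, without casein replicate 4 (leave-one-out range 0 to 1) and without both arrays of narrowest spread, and 1 in the F test with array weights. Each time the dairy gene was Eif4ebp1, with differences of 1.13, 1.13 and 1.19 and adjusted p from 0.0164 to 0.0326, and over all alternatives its difference ran from 0.56 to 1.19 with adjusted p up to 0.843. The medians over the genes moved by less than the spread between single arrays (SD 0.124) in all 42 alternatives. That SD is wider than the error of a difference between diet means. The median of dairy minus casein was -0.177 without casein replicate 4, against -0.0672 with it. With the replicate block, also on only the 8 leucine and casein arrays, 0 genes were called and no call changed.

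Of 448 alternative values for the 7 genes of the plots by sample, 433 kept direction and call, 12 changed sign and 3 became calls. Every sign change was in a difference that no fit called. Leucine minus casein became 0.08 for Akt1s1 without casein replicate 4 (leave-one-out range -0.26 to 0.08) and without both narrow arrays. It became 0.03 for Castor2 without leucine replicate 4 (-0.24 to 0.03), -0.03 for Wdr24 without casein replicate 2 (-0.03 to 0.23), -0.04 for Nprl2 without casein replicate 3 (-0.04 to 0.31) and 0.04 for Tsc1 without leucine replicate 3 (-0.23 to 0.04). Leucine minus dairy became 0.00 for Lamtor4 with arrays centred on their medians and 0.01 without leucine replicate 4 (-0.11 to 0.01). For Tsc1 it became -0.02 with quantile normalization, and it was below 0 when leucine replicate 1 (-0.03), leucine replicate 2 (-0.10) or dairy replicate 4 (-0.05) was left out (-0.10 to 0.17). The cause was not tested. With 4 arrays a diet, the median SE of a difference was 0.222, so small differences were not detectable.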
